A study of Nothobranchius furzeri with 10 samples.

Results

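The 200 most abundant transcripts of the killifish brain were described across 10 RNA sequencing libraries. They were chosen by mean level: counts were scaled so that each library summed to 1000000 (CPM), averaged over all 10 libraries, and the 200 highest of 26739 genes were taken. That choice used the mean over both groups and not the difference between them, so levels are given as a description and only the group difference was tested. The libraries came from brains of male turquoise killifish (Nothobranchius furzeri) of strain MZM-0410p, 22 weeks old. The perturbation labels give 5 samples as synthetic miR-101a at 100 pmol and 5 as scrambled control, with no dose stated for the control. The series' design line names the agent an antagomiR, which would block a microRNA where a synthetic one would add to it. No direction of action is therefore assumed, and miR-101a and scrambled serve only as names of the groups.

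In a brain, the most abundant messenger RNAs are usually those of housekeeping work, such as protein synthesis, energy supply and the cytoskeleton, together with genes of neurons and glia that every region uses. Abundant transcripts take a large part of the reads of an RNA library, and their levels carry the smallest counting error. MicroRNAs act on messenger RNAs that carry matching sites, mostly by lowering their stability and translation, and the effect on one target is often modest. Which of these roles the 200 genes have is not given here, because the files name genes by identifier only and none of these identifiers occurred in a reference table of gene symbols. Markers of neurons, glia or other cell types could not be looked up for the same reason.

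The 200 genes were 0.748% of the genes listed and took 19.7% of all counts on average. The most abundant gene alone held 0.724% of the counts, the first 10 held 3.53%, the first 50 held 9.32% and the first 100 held 13.5%. Reads were not dominated by a handful of transcripts: 57 genes were needed to reach 10% of the mean CPM, 321 to reach 25% and 1447 to reach 50%. Of the 200 genes, 55 lay at or above 1000 CPM and 13 at or above 2000 CPM. The ratio of the highest to the lowest mean CPM among them was 13.9, and their median was 717.4 CPM.

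Replicate 5 of the miR-101a group stood apart from the other libraries in its departures from the gene means, given further below. It did not stand apart in the share of counts. The share of counts taken by the 200 genes was 19.71%, 19.90%, 20.62%, 19.26% and 20.25% in miR-101a replicates 1 to 5. It was 19.86%, 19.33%, 19.35%, 19.47% and 18.82% in scrambled replicates 1 to 5. The group means were 19.95% ± 0.52 (SD, n = 5) and 19.37% ± 0.373 (SD, n = 5), and the libraries of the groups overlapped. The difference of 0.58 percentage points was a little above the pooled SD of 0.453. It lay between 0.41 and 0.75 percentage points when single libraries were left out. No test was made of this sum, because it is a score over genes chosen with earlier results known. In bulk tissue, fewer cells of a type and less RNA per cell cannot be told apart in such shares. The libraries held between 19598030 and 27086488 counts, of which the 200 genes had 3892217 to 5585432.

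**Figure D1:**
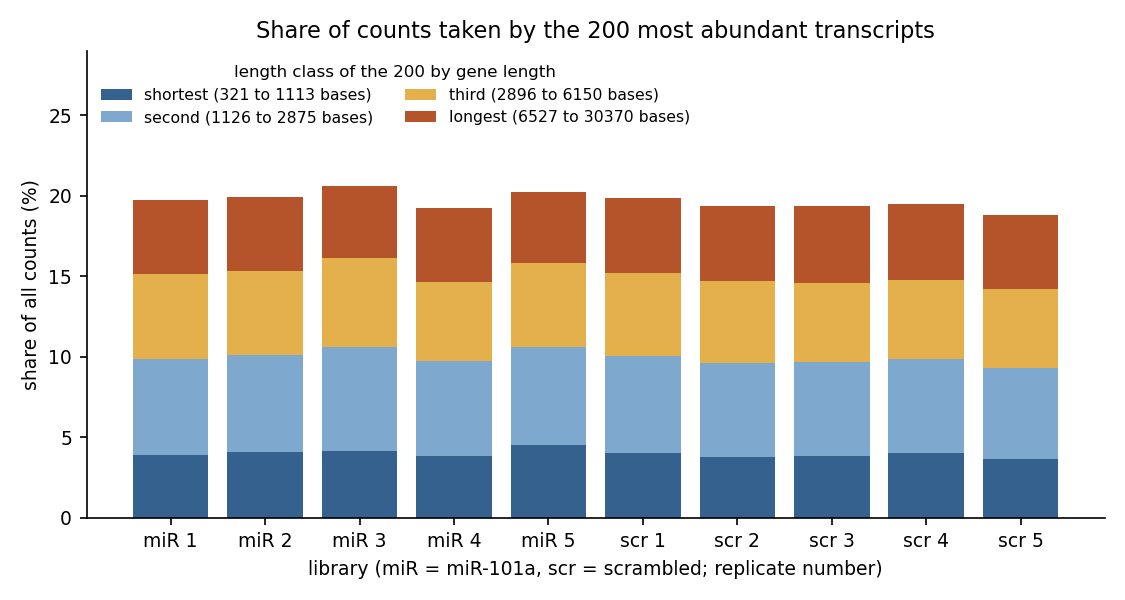
Share of all counts (%) taken by the 200 most abundant transcripts in each library, stacked by length class, 50 genes to a class. Every library lies between 18.82% and 20.62%, and the shortest genes take the most in miR-101a replicate 5, at 4.51%.

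Most of the genes were among the highest in every library. In single libraries, 181 to 193 of the 200 genes were also among that library's own 200 highest, with the fewest in miR-101a replicate 5. In every one of the 10 libraries, 159 genes were among the 200 highest, and 7 genes were so in 5 libraries or fewer. Ranking by the mean of the miR-101a libraries alone, or of the scrambled libraries alone, kept 194 of the 200 genes each time. The choice at the edge was narrow. The last genes inside were Nfu_g_1_022449, with a mean of 521.65 CPM, and Nfu_g_1_008309, with 519.85 CPM. The first genes outside were Nfu_g_1_013383, with 517.04 CPM, and Nfu_g_1_001078, with 514.28 CPM.

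The 5 highest genes differed in how steady they were. Nfu_g_1_019825 ranked first in every library. It was measured at 6936, 7656, 7259, 7958 and 7357 CPM in miR-101a replicates 1 to 5 and at 7336, 6380, 6491, 7337 and 7711 CPM in scrambled replicates 1 to 5. The lowest values were those of scrambled replicates 2 and 3, and the groups overlapped. Its log2 fold change, miR-101a minus scrambled, was 0.07 with a standard error of 0.064, and edgeR's adjusted p was 0.891.

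Nfu_g_1_020367, at rank 2, had 4202, 4859, 6738, 3763 and 2997 CPM in the miR-101a libraries and 3965, 5116, 3138, 3294 and 3681 CPM in the scrambled libraries. Both its extremes lay within the miR-101a group, in replicates 3 and 5, at a ratio of 2.25. In edgeR the log2 fold change of this gene was 0.23 (standard error 0.206, adjusted p = 0.894). It lay between 0.04 and 0.36 with single libraries left out, lowest without miR-101a replicate 3. Nfu_g_1_005244, at rank 4, had 3938, 3525, 5629, 3591 and 1621 CPM in the miR-101a libraries and 3974, 4785, 3568, 3216 and 4154 CPM in the scrambled libraries. The same pair of libraries held its extremes, replicate 3 the highest and replicate 5 the lowest, at a ratio of 3.47. In miR-101a replicate 5 this gene stood at rank 24 of its library. Its log2 fold change was -0.11 (standard error 0.262, edgeR adjusted p = 0.964) and became 0.08 without miR-101a replicate 5.

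Nfu_g_1_008211 and Nfu_g_1_016049, at ranks 3 and 5, were steadier. The former lay between 3615 and 4323 CPM in the miR-101a libraries and between 3138 and 4398 CPM in the scrambled libraries. The latter lay between 3038 and 3748 CPM and between 2840 and 3159 CPM, with the highest value in miR-101a replicate 5. Neither passed the test between groups, with log2 fold changes of 0.04 and 0.13 and edgeR adjusted p-values of 0.955 and 0.88.

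A share of reads is not a share of molecules, since a longer transcript yields more reads. Gene lengths were worked out from the deposited tables. On that scale the first gene, of 2314 bases, stood at 3130 CPM per kilobase and that at rank 4, of 1588 bases, at 2393 CPM per kilobase. The genes at ranks 2 and 3, of 5098 and 7728 bases, stood at 819.0 and 508.4 CPM per kilobase. Of the 200 genes, 108 were also among the 200 highest per kilobase.

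The 200 genes were shorter at the median than the 800 genes next in rank. Their median was 2885 bases, and the middle 80% ran from 498 to 9760 bases. The next 800 genes in rank had a median of 5523 bases, and their middle 80% ran from 1420 to 11438. Over all genes tested the median was 2691 bases, a little below that of the 200. Genes under 1000 bases made up 24% of the 200 (48 genes) and 6.88% of the next 800 (55 genes). They made up 6.65% of the 4000 after those (266 genes) and 12.3% of the following 5000. In the 9094 genes tested below them the share was 25.4%, and over all genes tested it was 17.2%. These shares are a description only, because the level in reads that chose the genes depends itself on length.

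Spread between libraries was measured as the SD of log2 CPM within groups, pooled over both. The median of the 200 genes was 0.099, which was 6.96% as a coefficient of variation of CPM. It was 0.099 for the next 800 genes in rank, 0.101 for the 4000 after those, 0.124 for the following 5000 and 0.259 for the 9094 genes tested below them. The error from counting reads alone, on the same log2 scale, was 0.011 for the 200 genes, 0.018 for the next 800 and 0.033 for the 4000 after those. The counting error is worked out from the mean count, so it falls with level by definition. Over the first 5000 ranks the spread between libraries hardly moved. In the 200 genes the median SD was 0.108 within the miR-101a group and 0.081 within the scrambled group. Pooled over the groups without miR-101a replicate 5, it was also 0.081. The SD exceeded 0.3 in 11 of the 200 genes (5.5%), against 33 of the next 800 (4.12%) and 191 of the 4000 after those (4.78%).

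**Figure D2:**
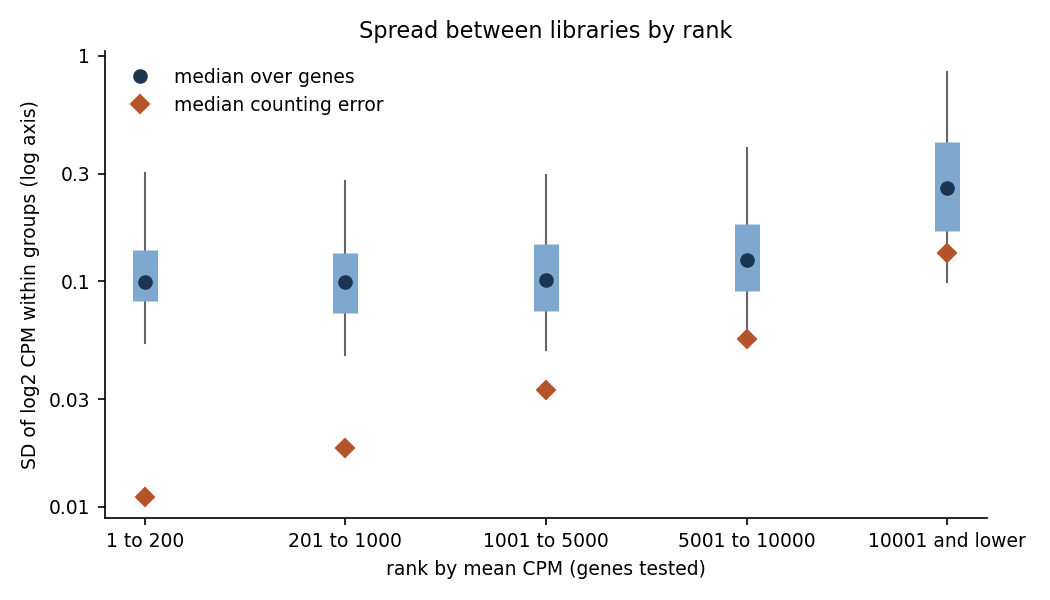
SD of log2 CPM within groups (log axis) against rank by mean CPM; dots are medians over genes, boxes run from the 25th to the 75th percentile, thin lines from the 5th to the 95th, and diamonds give the median counting error. The median spread is 0.099 for the 200 genes and 0.101 for the group at ranks up to 5000, while the counting error goes from 0.011 to 0.033.

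The steadiest of the 200 was Nfu_g_1_008309. It was measured at 528, 529, 531, 505 and 496 CPM in miR-101a replicates 1 to 5 and at 528, 511, 534, 521 and 516 CPM in scrambled replicates 1 to 5. The highest library exceeded the lowest 1.08-fold, and the SD of log2 CPM was 0.037. Nfu_g_1_015567, a gene of 20460 bases at rank 36, followed with an SD of 0.040, and values of 1226 to 1303 CPM in the miR-101a libraries and 1220 to 1325 CPM in the scrambled libraries. The group difference of both genes was near 0, with 95% intervals of the log2 fold change from -0.10 to 0.07 and from -0.07 to 0.10.

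The most variable was Nfu_g_1_014206, at rank 165 by its mean. It was measured at 1.7, 1256, 503, 579 and 4.4 CPM in miR-101a replicates 1 to 5 and at 778, 766, 638, 689 and 658 CPM in scrambled replicates 1 to 5. In miR-101a replicates 1 and 5 it was nearly absent, and in miR-101a replicate 2 it stood at rank 38. In replicate 1 its 38 counts placed it at rank 16812. The group difference was not resolved, with a log2 fold change of -0.59 (standard error 1.17, edgeR adjusted p = 0.955). The estimate lay between -1.38 and -0.27 with single libraries left out, and it was -2.68 in limma-voom. This gene alone held 71.3% of the summed squared departures of the 200 genes from their means. No other of the 200 genes had under 6646 counts in any library.

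Nfu_g_1_011018, at rank 98, had the next largest spread. It had 672, 640, 714, 1392 and 821 CPM in the miR-101a libraries and 624, 401, 442, 1059 and 598 CPM in the scrambled libraries. It stood highest in miR-101a replicate 4 and scrambled replicate 4, and the groups overlapped. In edgeR its log2 fold change was 0.44 (standard error 0.30, adjusted p = 0.88). It was 0.19 without miR-101a replicate 4 and 0.71 without scrambled replicate 4.

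**Figure D3:**
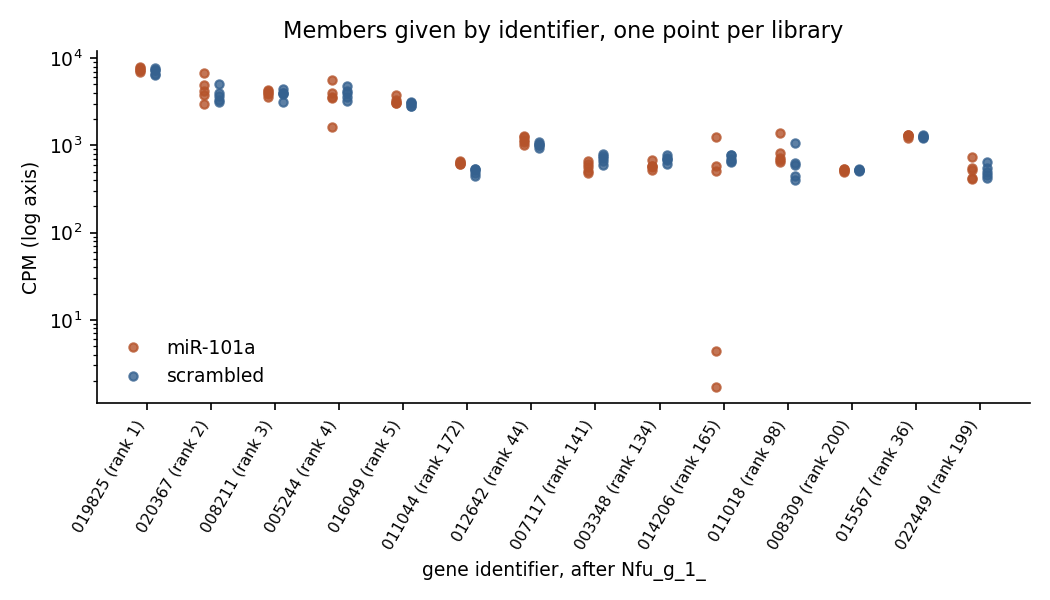
CPM (log axis) of the 14 members given by identifier, 1 point per library, with the miR-101a and scrambled libraries side by side. Only Nfu_g_1_014206 falls near 0 in any library, at 1.7 and 4.4 CPM in miR-101a replicates 1 and 5.

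Without Nfu_g_1_014206, miR-101a replicate 5 held 33.3% of the summed squared departures. The departure of a gene in a library is its log2 CPM there minus its mean over the 10 libraries. The median size of the departure over the 200 genes was 0.192 in miR-101a replicate 5, 0.101 in scrambled replicate 5 and 0.042 to 0.071 in the other 8 libraries. Leaving Nfu_g_1_014206 aside, 105 of the genes lay farthest from their mean in miR-101a replicate 5, 76 of them above it. The next highest number was 24, in miR-101a replicate 3. Replicate 5 of the miR-101a group also stood apart in the next 800 genes, where the median departure was 0.135 against 0.048 to 0.069 elsewhere.

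Departures ran most clearly with gene length in replicate 5 of each group. The 200 genes were divided by length into 4 classes of 50, with limits of 321 to 1113 bases, 1126 to 2875, 2896 to 6150 and 6527 to 30370. In miR-101a replicate 5 the median departure was 0.21 in the shortest class, 0.16 and 0.08 in the middle classes, and -0.12 in the longest. In scrambled replicate 5 the order was the opposite, at -0.12, -0.11, -0.04 and 0.02. In the other libraries the class medians lay between -0.064 and 0.058. They ran in order of length in miR-101a replicate 3, at 0.058, 0.057, 0.024 and -0.039. They also did in scrambled replicate 3, at -0.047, -0.039, -0.0275 and 0.046. Each ran in the direction of replicate 5 of its own group. The rest did not run in order of length. Scrambled replicate 1, for one, had 0.016, 0.021, 0.016 and 0.029. The first principal component of the genes without Nfu_g_1_014206 held 41.2% of their variance, and miR-101a replicate 5 scored -3.62 on it, against -0.35 to 1.15 in the other libraries. Its loadings correlated with length at a Spearman rho of 0.46 across those genes, which share the libraries and are not independent.

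**Figure D4:**
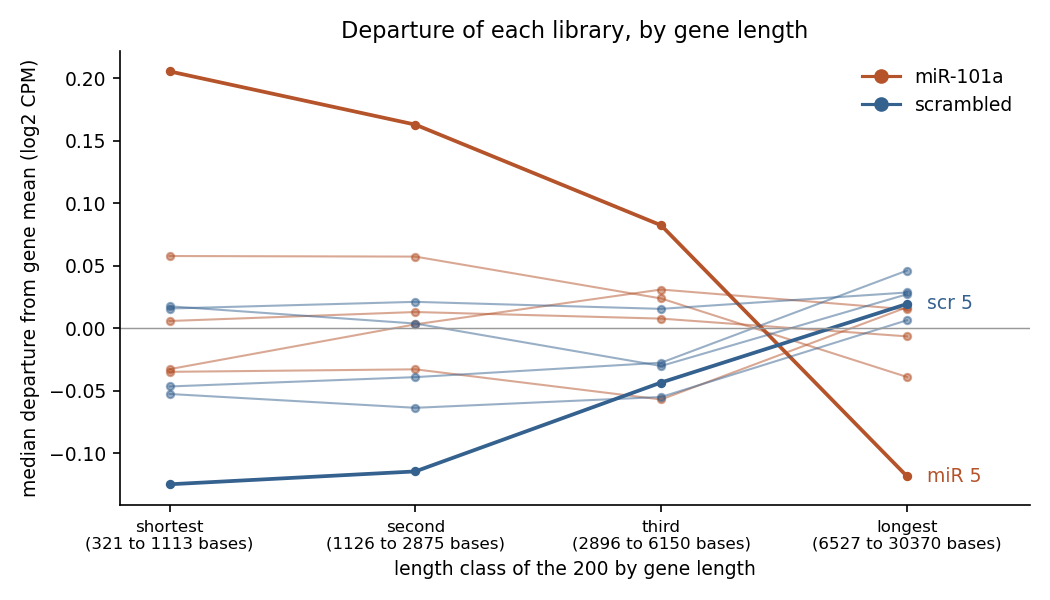
Median departure from the gene mean (log2 CPM) in each library for the 4 length classes of the 200 genes, with 1 line per library. In miR-101a replicate 5 the line falls from 0.21 in the shortest genes to -0.12 in the longest, and in scrambled replicate 5 it rises from -0.12 to 0.02.

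The comparison of the groups asked whether the abundant transcripts of the brain changed in level with the labelled agent. All 200 genes were among the 19094 tested. By edgeR's quasi-likelihood test, 0 of the 200 passed a Benjamini-Hochberg adjusted p of 0.05, as did 0% of all genes tested, and the lowest adjusted p among the 200 was 0.565. DESeq2 called 1 of the 200 at that threshold, against 0.0683% of the 19032 genes it gave an adjusted p. Limma-voom called 0. At an unadjusted edgeR p below 0.05 there were 21 of the 200 (10.5%), against 4.90% of all genes tested, 6.38% of the next 800 genes and 5.15% of the 4000 after those. Of the 21, 10 were higher in the miR-101a group, where 2.47% of all genes met the same rule, and 11 were lower, where 2.43% did.

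That count depended on single libraries. Without miR-101a replicate 4 it was 37 of the 200 (18.5%, against 9.64% of all genes). Without miR-101a replicate 5 it was 10 (5.00%, against 3.86%), and without scrambled replicate 2 it was also 10 (against 4.12%). It was 13 without miR-101a replicate 2 (against 4.28%) and 12 without scrambled replicate 3 (against 3.28%). No single library left out gave any of the 200 genes an adjusted p below 0.05 in edgeR.

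Differences were small. The median log2 fold change of the 200 genes was 0.05, against 0.00 over all genes tested, and 132 of the 200 were above 0, or 66.0% against 50.8%. In the next 800 genes the median was -0.01, and 43.5% were above 0. Taken without sign, log2 fold changes had a median of 0.077 and a median standard error of 0.064. In 186 of the 200 genes (93%) the whole 95% interval was inside a 1.5-fold difference, against 95% of the next 800 and 75.9% of all genes tested. In 198 of the 200 genes (99%) it was inside a 2-fold difference, against 98.8% of the next 800 and 90.8% of all genes tested. The remaining 2 genes were Nfu_g_1_014206, with a log2 interval from -3.21 to 2.02, and Nfu_g_1_011018, with one from -0.23 to 1.11. The interval of Nfu_g_1_011018 reached past a 2-fold difference only on the side of higher levels in the miR-101a group. The median log2 fold change was 0.02 without miR-101a replicate 5 and 0.07 without miR-101a replicate 4.

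The gene with the smallest p among the 200 was Nfu_g_1_011044, of 621 bases at rank 172. It was measured at 608, 604, 638, 670 and 628 CPM in miR-101a replicates 1 to 5 and at 483, 520, 451, 536 and 537 CPM in scrambled replicates 1 to 5. Every miR-101a library lay above every scrambled library, which held for no other of the 200 genes in either direction and for 0.655% of all genes tested. The log2 fold change was 0.31 with a standard error of 0.056. Its adjusted p was 0.565 in edgeR and 1.21e-04 in DESeq2, so the call rested on the choice of test.

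Nfu_g_1_012642, of 4565 bases at rank 44, was next among the genes that were higher. Its values were 1096, 1256, 1161, 1005 and 1271 CPM in the miR-101a libraries and 1010, 1091, 1032, 1014 and 936 CPM in the scrambled libraries, and the groups overlapped through miR-101a replicate 4. In edgeR the log2 fold change was 0.19 (standard error 0.070, adjusted p = 0.88).

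The smallest p-values among genes that were lower belonged to 2 very long genes. Nfu_g_1_007117, of 19320 bases at rank 141, had 508, 484, 612, 663 and 562 CPM in the miR-101a libraries and 725, 603, 751, 670 and 795 CPM in the scrambled libraries. Nfu_g_1_003348, of 16463 bases at rank 134, had 586, 584, 520, 686 and 571 CPM in the miR-101a libraries and 618, 682, 785, 701 and 721 CPM in the scrambled libraries. In both genes miR-101a replicate 4 was the highest of its group and reached into the range of the scrambled libraries. In Nfu_g_1_007117 miR-101a replicate 3, at 612 CPM, also lay above scrambled replicate 2, at 603 CPM. The log2 fold changes of the 2 genes were -0.33 and -0.25, with standard errors of 0.099 and 0.081, and edgeR's adjusted p was 0.88 for each.

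The size and sign of the difference moved with gene length, mainly in the longer classes. The median log2 fold change was 0.08 in the shortest class, 0.08 and 0.05 in the middle classes and -0.05 in the longest. Values above 0 were found in 45 of the 50 shortest genes and in 15 of the 50 longest. With single libraries left out, the median of the shortest class lay between 0.03 and 0.11 and that of the longest between -0.06 and -0.02. In both, the value nearest 0 was the one without miR-101a replicate 5. Across the 200 genes, log2 fold change and length had a Spearman rho of -0.47, and -0.39 without miR-101a replicate 5. Across the next 800 genes the rho was also -0.47, and -0.37 without that library. Across the 4000 after those it was -0.26, and -0.17 without that library. It was -0.105 across the following 5000 and 0.00111 across the 9094 genes tested below them. Over all genes tested it was -0.0916, and -0.0561 without that library. These are correlations across genes that share the same libraries.

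All 10 genes that were higher at an unadjusted p below 0.05 were between 621 and 4565 bases long, and the 11 that were lower were between 5364 and 30370 bases long. A mark of 10000 bases was set after these values had been seen. Above it lay 20 of the 200 genes, of which 16 were lower in the miR-101a group and 9 were lower at an unadjusted p below 0.05. Of all 542 genes tested above that length, 425 were lower and 62 (11.4%) were lower at an unadjusted p below 0.05. Without miR-101a replicate 5, 6 of the 20 had such a p, against 35 of the 542. With single libraries left out, 6 to 12 of the 20 had it, against 27 to 182 of the 542. The median log2 fold change of the 20 was -0.14, and it ranged from -0.19 to -0.11 with single libraries left out. Among the next 800 genes in rank, the 135 above that length had a median of -0.08, with 116 of them lower and 21 at an unadjusted p below 0.05. That 21 was 10 without miR-101a replicate 5 and ran from 6 to 48 with single libraries left out.

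Together these 20 long genes took 1.63%, 1.56%, 1.57%, 1.78% and 1.51% of the counts in miR-101a replicates 1 to 5 and 1.64%, 1.81%, 1.85%, 1.802% and 1.75% in scrambled replicates 1 to 5. Replicate 4 of the miR-101a group lay within the scrambled range, and scrambled replicate 1 lay nearest the other miR-101a libraries. The group means were 1.61% ± 0.103 and 1.77% ± 0.083 (SD, n = 5 each). When the trend of level on length in each library was removed from the edgeR fit, the median log2 fold change of the 20 genes was -0.05, and 6 of them had an unadjusted p below 0.05, against 52 of the 542 genes above that length. Over the 200 genes, 17 then had such a p (8.50%, against 4.87% of all genes tested).

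**Figure D5:**
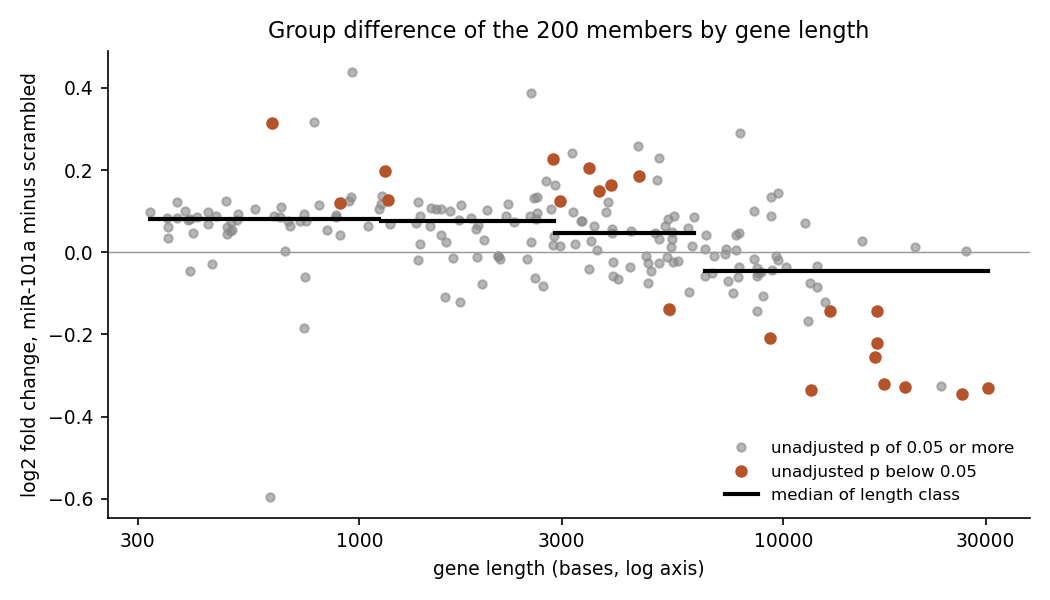
Log2 fold change (miR-101a minus scrambled) of each of the 200 genes against gene length in bases (log axis), with unadjusted edgeR p below 0.05 in red and the median of each length class as a bar. The medians go from 0.08 in the shortest class to -0.05 in the longest, and the 11 red points below 0 lie at 5364 bases or more.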

How the data were processed

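Libraries of total RNA from 10 brain samples were prepared with TruSeq chemistry (RNA kit v2), per the labels' protocols. Read conversion, alignment and counting tools named in the submitters' processing notes are featureCounts 1.4.6-p4, bcl2fastq 1.8.4 and STAR 2.4.1d. Which build and annotation were used, and whether strand was counted, is not given in the sources used here, and overlapping or near-identical genes are uncertain. The authors deposited read counts per gene as whole numbers, and RPKM values for the same genes and libraries.

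Deposited RPKM values served only to work out gene lengths. In 8924 genes with a mean count above 500, count and RPKM gave a constant length (median coefficient of variation 0.00172%) only when library totals were recycled down the table. With each library's own total it was 14.4%, so the deposited RPKM were not compared between libraries. The implied length was within 0.1 of a whole number in 196 of the 200 genes.

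Counts were fitted in R 4.3.3 with edgeR 4.0.16 (filterByExpr, TMM, robust glmQLFit and glmQLFTest, all 10 libraries, no covariate), and p-values were adjusted over all 19094 genes kept, together 99.95% of the counts. The TMM factors ran from 0.991 to 1.005. CPM in the text are scaled to column sums, spread used log2 of CPM plus 0.1, and each standard error was the log2 fold change divided by the square root of its F statistic. The fit was also run on simulated data, in which no library was set apart and no trend on gene length was put in. Replicates of a group differed beyond sampling noise (chi-square per degree of freedom 9.93 to 40.8 in 20 pairs), so each library counted once. Nothing in the labels says that each sample was its own fish, and the spread behind the p-values may be technical. Replicate numbers follow the order of the records, and no batch or date is given.

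Members were the 200 genes of highest mean CPM. Named are the 5 highest, the 2 of smallest p in each direction, the 2 most and the 2 least variable, and the 2 on either side of the edge. The members, lists and tests were chosen with earlier results of these data known. Lists of genes by symbol had no members, since 0 identifiers matched 38438 reference genes. Alternatives were other size factors and filters, DESeq2 1.42.0, limma-voom (limma 3.58.1), other rules for members, a block on title numbers, leaving out each library and, added after the data were seen, removal of the length trend (loess, span 0.5). Summaries and figures were made in Python 3.11.15 (matplotlib 3.10.9, scipy 1.17.1, pandas 2.3.3, numpy 2.4.6).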

Additional observations from a re-analysis of the deposited data

Results flagged for a closer look

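For 24 measures and both groups, the highest and the lowest library were examined for a distance from the nearest other library above 0.71 of the whole range. Chance gives about 1 such distance in 20 groups, or 2.4 in the 48 examined, and 3 were found. The measures share libraries and are not independent, and some genes were named for their spread, so the chance rate is rough. Not every value per library was among the 24 measures. For the next 800 genes in rank, the median size of the departure was 0.1352 in miR-101a replicate 5. It was 0.0478 to 0.0690 in the other miR-101a libraries, and this distance is not among the 3 found.

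The median size of the departure of the 200 genes from their means was 0.1919 in miR-101a replicate 5, against 0.0421 to 0.0675 in the other miR-101a libraries. Nfu_g_1_011018 stood at 1392 CPM in miR-101a replicate 4, against 640.4 to 821 CPM in the other miR-101a libraries. Nfu_g_1_015567, among the steadiest genes, stood at 1226 CPM in that same library, against 1283 to 1303 CPM in the others of its group.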

How the results depend on the processing

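The number of the 200 genes past an adjusted p of 0.05 was 0 in edgeR and 0 in 21 of 24 alternatives. It was 1 in DESeq2, and the cause was not tested. Titles in both groups carry the numbers 21, 22 and 23, which the labels tie to no shared fish or batch. They belong to miR-101a replicates 1 to 3 and to scrambled replicates 3 to 5. The deviations from the group means correlated at 0.0148, -0.0781 and -0.128 between libraries of the same number. Those means rest on few libraries, so the values cannot decide whether libraries of the same number shared more than it. Those 6 libraries leave out miR-101a replicates 4 and 5, of which replicate 5 stood apart, and scrambled replicates 1 and 2. They gave 6 genes when the number entered as a replicate block and 7 without it, beside 332 and 364 of 19120 genes tested. At an unadjusted p below 0.05 they gave 32 of the 200 with the block (10.2% of all genes) and 26 without it (9.16% of all genes).

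That unadjusted count was 21 with all libraries, 10 to 37 with single libraries left out and 13 for the 200 genes of highest CPM per kilobase, 108 of them shared. The median log2 fold change was 0.05, 0.02 to 0.07 with single libraries left out, and 0.0084 over the 500 most abundant genes. The difference in share of counts, 0.58 percentage points, stayed within 1 SD in 17 alternatives, from 0.41 to 0.75 with single libraries left out. The median spread was 0.099, 0.081 to 0.10 with single libraries left out, and 6.96% as a coefficient of variation.

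The genes given by identifier kept their sign in all but 12 of 266 alternatives. All 12 were in genes with an edgeR adjusted p above 0.8. That held for every gene given by identifier except Nfu_g_1_011044, at 0.565. Nfu_g_1_005244 lay between -0.3168 and 0.0775 with single libraries left out, above 0 without miR-101a replicate 5, and was 0.2276 and 0.2495 in the 6 libraries with and without the block. Nfu_g_1_011018 was -0.0593 in the 6 libraries without the block. Nfu_g_1_008211 lay between -0.0214 and 0.0928, below 0 without scrambled replicate 5. Nfu_g_1_022449 lay between -0.1064 and 0.1404, below 0 without miR-101a replicate 1, scrambled replicate 1 or scrambled replicate 5. Nfu_g_1_008309 lay between -0.0224 and 0.0036, above 0 without miR-101a replicate 4 or scrambled replicate 3, and was 0.0058 and 0.0055 in the 6 libraries. In those 6 libraries the adjusted p of Nfu_g_1_007117 was 0.0276 with the block and 0.0803 without it, and that of Nfu_g_1_003348 was 0.0515 with it and 0.0359 without it.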
